A study of Mus musculus with 6 samples.

Results

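Genes that carry bile acids across the intestinal epithelium, or that read bile acid levels inside it, were examined in colon RNA from mice with and without NSD2 in the intestinal epithelium. The set was a fixed list of 9 genes among the 24517 genes in the count tables: the uptake carrier Slc10a2, the intracellular carrier Fabp6, the exporters Slc51a, Slc51b and Abcc3, the nuclear receptors Nr1h4 (FXR) and Vdr, the FXR response gene Nr0b2 (SHP), and the membrane receptor Gpbar1 (TGR5). The genes were listed by role, with earlier results of these data known. All 9 were in the tables, and 8 of them passed the filter on low counts and were tested, Nr0b2 being the exception.

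Each group held 3 colon libraries from mice of the C57BL/6J background. All mice carried the floxed Nsd2 alleles, and all had eaten HFCD, a diet rich in fat and cholesterol, over 16 weeks according to the labels. The Nsd2fl/fl mice kept NSD2, a methyltransferase for lysine 36 of histone H3, and the Nsd2ΔIE mice lost it through Villin-Cre, which is active in intestinal epithelium but not in muscle, nerve or immune cells of the gut wall. The methods of the study give male littermates, 7 to 8 weeks old when feeding began, and a longer feeding time than the labels. Colon pieces were sequenced in bulk, so that fewer cells of a type and less RNA per cell cannot be told apart.

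Bile acids are made in the liver, released into the gut and for the most part recovered in the terminal ileum. SLC10A2 takes them up at the brush border, FABP6 binds them in the cytosol, and the SLC51A-SLC51B pair, with ABCC3 as a further route, exports them towards the blood. Bile acids in the cell activate FXR, which pairs with RXR, raises Fabp6, Slc51a, Slc51b, Nr0b2 and the hormone gene Fgf15, and so restrains hepatic synthesis; VDR senses the secondary bile acid lithocholic acid besides vitamin D, and TGR5 signals at the cell surface. The colon takes up much less bile acid than the ileum, and gene expression differs between its proximal and distal segments.

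Library totals lay between 38041832 and 38604680 counts, and 16347 genes were tested. Nsd2 was at 47.8, 59.1 and 68.9 CPM (counts scaled to a common library size, with TMM factors) in Nsd2fl/fl replicates 1 to 3 and at 24.5, 23.1 and 27.5 CPM in Nsd2ΔIE replicates 1 to 3, so the groups did not overlap. Sex-linked genes went against a single sex: Xist was between 0 and 0.104 CPM in the Nsd2fl/fl libraries and between 535.3 and 611.4 CPM in the Nsd2ΔIE libraries, and the Y-linked genes Ddx3y, Kdm5d and Uty were at 0 in every Nsd2ΔIE library. Genotype and sex therefore cannot be told apart in any comparison here. Hoxb13, a Hox gene of the distal colon and rectum, divided the libraries across the groups: it was at 364.9, 340.5 and 310.0 CPM in Nsd2fl/fl 1, Nsd2fl/fl 3 and Nsd2ΔIE 1, and at 0.706, 4.97 and 26.2 CPM in Nsd2fl/fl 2, Nsd2ΔIE 2 and Nsd2ΔIE 3. No label gives the position of the pieces along the colon. Smooth muscle markers summed to between 1416 and 4047 CPM in Nsd2fl/fl and between 5031 and 10770 CPM in Nsd2ΔIE, with 8 of 8 higher in Nsd2ΔIE and 7 past an unadjusted p of 0.05, while the 10 epithelial markers summed to between 13762 and 22493 CPM and between 13056 and 14950 CPM, with 10 of 10 lower and 1 past that p. Over all genes tested, 8.15% were higher and 2.96% lower in Nsd2ΔIE at that p by edgeR.

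The start regions of 4 of the genes are shown because they turned out to behave in contrasting ways. Slc10a2, Slc51a and Slc51b were each higher in the same libraries than in all others, and Fabp6 was not. Abcc3 and Nr1h4 shared that division and are not shown. Each is the 300-base RefSeq window from 250 bases before to 50 bases after the start site, on the strand of the gene in GRCm38.p6, the assembly that mm10 in the processing notes also names. Capitals mark either the nuclear receptor half-site AGGTCA, searched exactly on both strands, or its inverted repeat with 1 base between the copies (AGGTCANTGACCT), the usual form of an FXR element, searched with up to 2 mismatches over the 12 fixed bases. Any exact inverted repeat would contain the half-site. In Fabp6 the capitals are inverted repeats, and in Slc51a and Slc51b they are half-sites.
Fabp6, chr11:43601513-43601812, minus strand: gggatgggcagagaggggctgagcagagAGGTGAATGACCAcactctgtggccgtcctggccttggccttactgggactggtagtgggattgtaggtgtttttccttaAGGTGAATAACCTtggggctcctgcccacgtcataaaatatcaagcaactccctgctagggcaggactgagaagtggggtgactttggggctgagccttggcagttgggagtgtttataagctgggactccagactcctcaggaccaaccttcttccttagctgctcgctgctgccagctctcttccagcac
Slc51a, chr16:32487830-32488129, minus strand: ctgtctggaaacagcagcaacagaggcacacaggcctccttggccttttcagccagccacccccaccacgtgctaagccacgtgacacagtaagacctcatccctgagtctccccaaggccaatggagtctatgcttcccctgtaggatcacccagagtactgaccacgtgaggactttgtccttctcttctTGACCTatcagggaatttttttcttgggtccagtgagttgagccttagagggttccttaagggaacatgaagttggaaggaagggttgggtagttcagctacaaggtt
Slc51b, chr9:65422724-65423023, minus strand: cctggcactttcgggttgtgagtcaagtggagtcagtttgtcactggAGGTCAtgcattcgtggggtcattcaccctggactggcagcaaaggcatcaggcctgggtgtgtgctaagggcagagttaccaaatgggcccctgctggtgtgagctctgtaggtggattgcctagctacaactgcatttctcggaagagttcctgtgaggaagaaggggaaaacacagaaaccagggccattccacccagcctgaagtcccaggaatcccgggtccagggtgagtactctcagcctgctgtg
Slc10a2, chr8:5105238-5105537, minus strand: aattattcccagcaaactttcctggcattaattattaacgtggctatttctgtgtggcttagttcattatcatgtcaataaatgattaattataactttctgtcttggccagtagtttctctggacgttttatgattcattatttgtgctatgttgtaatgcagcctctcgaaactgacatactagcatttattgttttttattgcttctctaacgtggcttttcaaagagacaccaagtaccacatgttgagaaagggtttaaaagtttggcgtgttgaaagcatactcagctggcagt

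The Fabp6 window held 2 inverted repeats with 2 mismatches each, AGGTGAATGACCA beginning 222 bases and AGGTGAATAACCT beginning 142 bases before the start site. None of the other 7 windows found held an inverted repeat at that tolerance, and 1.14% of all 32851 windows in the table did. The exact half-site was in the windows of Slc51a, 58 bases before the start, Slc51b, 203 bases before it, and Nr1h4, 214 bases before it, that is in 3 of 8 windows against 16.3% of all windows. The Nr1h4 window, chr10:89506609-89506908, lies inside the gene, whose span on the minus strand begins at 89533645. Slc10a2 held neither motif in its window. These matches describe letters within 300 bases and no binding was measured. For Abcc3 no window was printed.

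Slc10a2, the apical sodium-dependent bile acid transporter (chr8:5083219-5105287), was found at very high and very low levels within the same genotype. The Nsd2fl/fl replicates 1 to 3 had 37, 9078 and 14 counts, or 0.961, 256.5 and 0.393 CPM. The Nsd2ΔIE replicates 1 to 3 had 251, 7926 and 2545 counts, or 6.33, 199.98 and 61.3 CPM. Replicate 2 was the highest in both groups, the other controls were near the floor, and the Nsd2ΔIE values lay inside the range of the controls. The Nsd2fl/fl mean of 85.96 ± 147.7 CPM lay beside an Nsd2ΔIE mean of 89.2 ± 99.8 CPM (SD, each n = 3), at a log2 fold change of 0.05 ± 2.05 (SE); the adjusted p was 0.995 by the quasi-likelihood test of edgeR with Benjamini-Hochberg adjustment over all genes. With an SE of this size, a genotype difference of several fold in Slc10a2 was not detectable. Without Nsd2fl/fl replicate 2 the log2 fold change was 7.02 (SE 1.66, adjusted p = 0.325), so the near-zero difference rested on that library.

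Slc51a, the alpha subunit of the basolateral organic solute transporter (chr16:32475578-32487879), showed the sharpest contrast between libraries. It had 0, 7808 and 0 counts in the Nsd2fl/fl replicates and 55, 9338 and 3450 counts in the Nsd2ΔIE replicates, or 0, 220.6 and 0 CPM against 1.39, 235.6 and 83.2 CPM. A count of 0 allows up to 3 counts, here 0.0779 and 0.0842 CPM. The 3 libraries with the high counts were the same ones that were high for Slc10a2, and the groups overlapped. The log2 fold change between genotypes was 0.54 (SE 2.44, adjusted p = 0.948).

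Slc51b, which encodes the beta subunit without which the alpha subunit does not reach the membrane (chr9:65412753-65422773), was present in every library. It was at 17.8, 117.0 and 36.4 CPM in Nsd2fl/fl and at 25.3, 100.8 and 65.5 CPM in Nsd2ΔIE. Replicate 2 was the highest and replicate 1 the lowest in both groups, which overlapped. The log2 fold change was 0.16 (SE 0.745, adjusted p = 0.948). In the 3 libraries where Slc51a had at most 55 counts, its partner still had 684, 1297 and 1002 counts. Exons of Slc51a and Slc51b share bases with Pcyt1a and Rasl12 on the opposite strand, and whether counting used the strand is not given in the sources used here. Pcyt1a had 2706 and 2516 counts in the 2 libraries in which Slc51a had none.

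Abcc3, the multidrug resistance protein MRP3 that exports conjugated bile acids across the basolateral membrane (chr11:94343295-94393017), varied least among the transporters. It was at 168.9, 298.4 and 166.5 CPM in Nsd2fl/fl and at 181.3, 271.7 and 198.1 CPM in Nsd2ΔIE. Replicate 2 stood above the others in both groups, which overlapped. The means were 211.3 ± 75.5 and 217.1 ± 48.1 CPM, the log2 fold change was 0.04 (SE 0.277) and the adjusted p was 0.968.

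**Figure D1:**
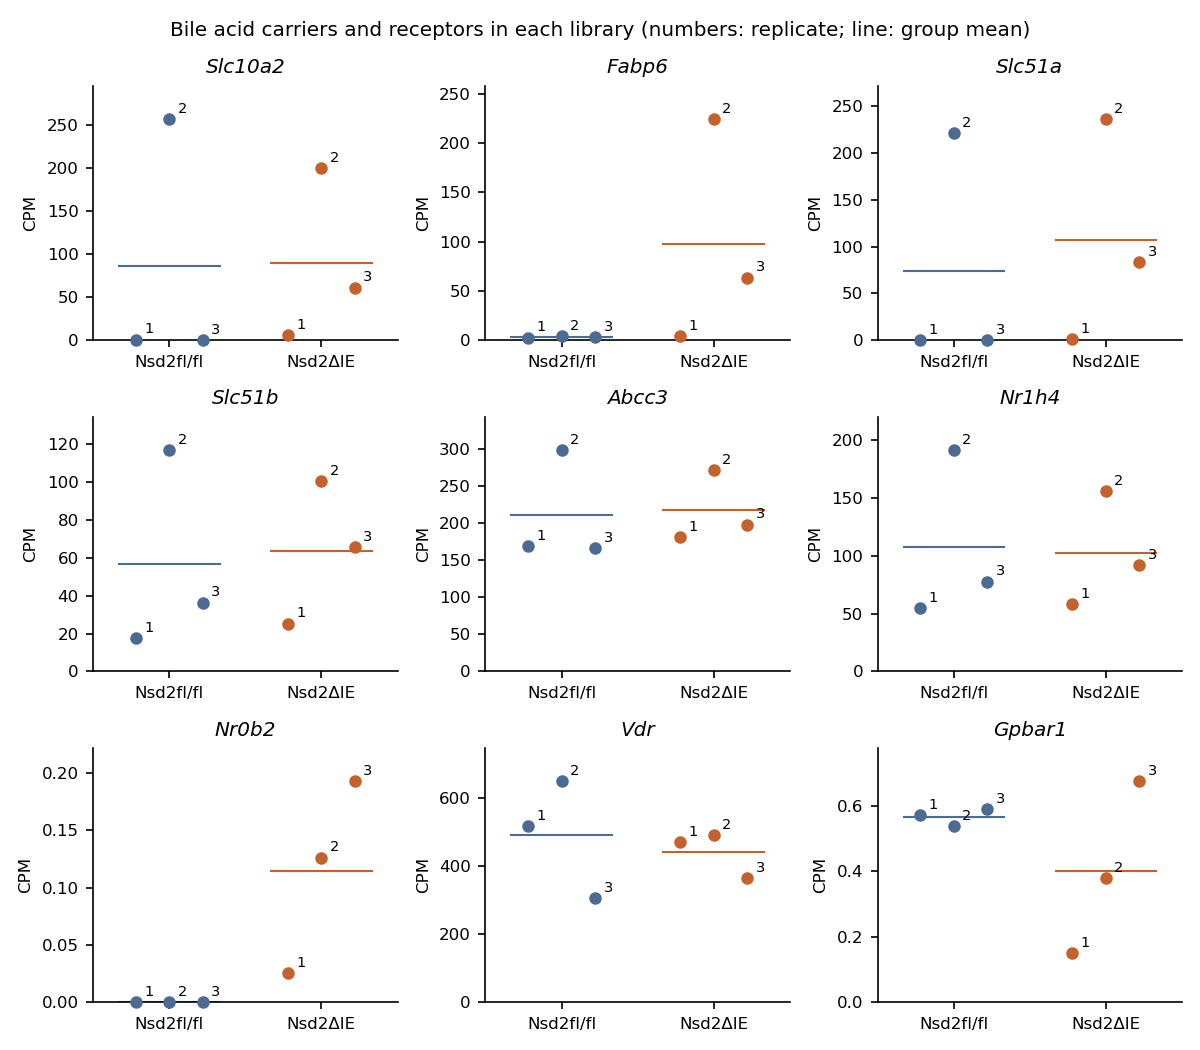
Each panel plots 1 gene in CPM (linear axis from 0, scaled by TMM factors) for the 3 Nsd2fl/fl and 3 Nsd2ΔIE libraries, with the replicate number beside each point and a line at the group mean. Slc10a2, Slc51a, Slc51b, Abcc3, Nr1h4 and Vdr peak in replicate 2 of both groups. Fabp6 does so too, but it stays between 2.73 and 3.98 CPM in all Nsd2fl/fl libraries, replicate 2 included.

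Fabp6, the cytosolic ileal bile acid binding protein (chr11:43596040-43601562), was the only tested gene of the set whose groups did not overlap. The Nsd2fl/fl replicates 1 to 3 had 105, 141 and 106 counts, or 2.73, 3.98 and 2.98 CPM. The Nsd2ΔIE replicates 1 to 3 had 170, 8884 and 2635 counts, or 4.29, 224.2 and 63.5 CPM. All 3 controls were uniformly low, Nsd2ΔIE replicate 1 lay just above them, and Nsd2ΔIE replicates 2 and 3 were far above. Means were 3.23 ± 0.666 CPM for Nsd2fl/fl and 97.3 ± 113.8 CPM for Nsd2ΔIE (SD, each n = 3). By edgeR the log2 fold change of 4.91 ± 1.26 (SE) had an unadjusted p of 0.00636 but an adjusted p of 0.303, so the change did not pass the threshold over all genes. DESeq2 gave 4.92 (SE 1.24) with an adjusted p of 0.00797, and limma-voom 3.63 (SE 2.15) with an adjusted p of 0.571.

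Among the 8 tested genes, 0 had an adjusted p under 0.05 by edgeR, against 0.0306% of all genes tested, and 1 by DESeq2, against 2.78%. The 5 genes called by edgeR were the sex-linked Xist, Ddx3y, Eif2s3y, Kdm5d and Uty. Nsd2 itself was not called by edgeR, at an adjusted p of 0.302, but was by DESeq2, at 3.88e-07. An adjusted p above 0.05 by edgeR is therefore no sign that a gene was unchanged. The number with an unadjusted p under 0.05 was 1 of 8, Fabp6, against 11.1% of all genes, and the number whose CPM ranges did not overlap between the groups was 1 of 8, again Fabp6, against 18.7% of all genes. A count of 1 in 8 is close to the first of these shares and below the second. The median log2 fold change over the 8 genes was 0.05, and over all genes tested -0.04.

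The division by Hoxb13 ran through 5 of the 8 genes. In the 3 libraries with low Hoxb13 (Nsd2fl/fl 2, Nsd2ΔIE 2 and Nsd2ΔIE 3), Slc10a2, Slc51a, Slc51b, Abcc3 and Nr1h4 were each higher than in any of the 3 libraries with high Hoxb13, and no gene of the set was lower in all of them. Over all genes tested, 22.4% separated the same libraries in either direction. The ratio of mean CPM, low over high Hoxb13, was 388.7 for Slc51a, 67.4 for Slc10a2, 3.57 for Slc51b, 2.30 for Nr1h4 and 1.49 for Abcc3. These libraries were set apart by an expression level and not by a label, so the ratios are descriptions without a test.

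Fabp6 did not keep to that division. Nsd2fl/fl replicate 2 had the lowest Hoxb13 of the 6 libraries and the highest Slc10a2, yet its Fabp6 was 3.98 CPM, close to the 2.73 and 2.98 CPM of the other controls. For each Slc10a2 read there were 0.0155 Fabp6 reads in that library, but 1.12 and 1.04 in Nsd2ΔIE replicates 2 and 3. For Slc51a and Slc10a2 the same ratio was 0.860 in Nsd2fl/fl 2 and 1.18 and 1.36 in Nsd2ΔIE 2 and 3, so these carriers kept similar proportions in all 3 libraries. Within the low-Hoxb13 libraries the mean of the Nsd2ΔIE values was 36.1-fold the single Nsd2fl/fl value for Fabp6, 0.509-fold for Slc10a2, 0.722-fold for Slc51a, 0.711-fold for Slc51b, 0.787-fold for Abcc3 and 0.647-fold for Nr1h4. With 1 control library on that side, no test could be made there.

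**Figure D2:**
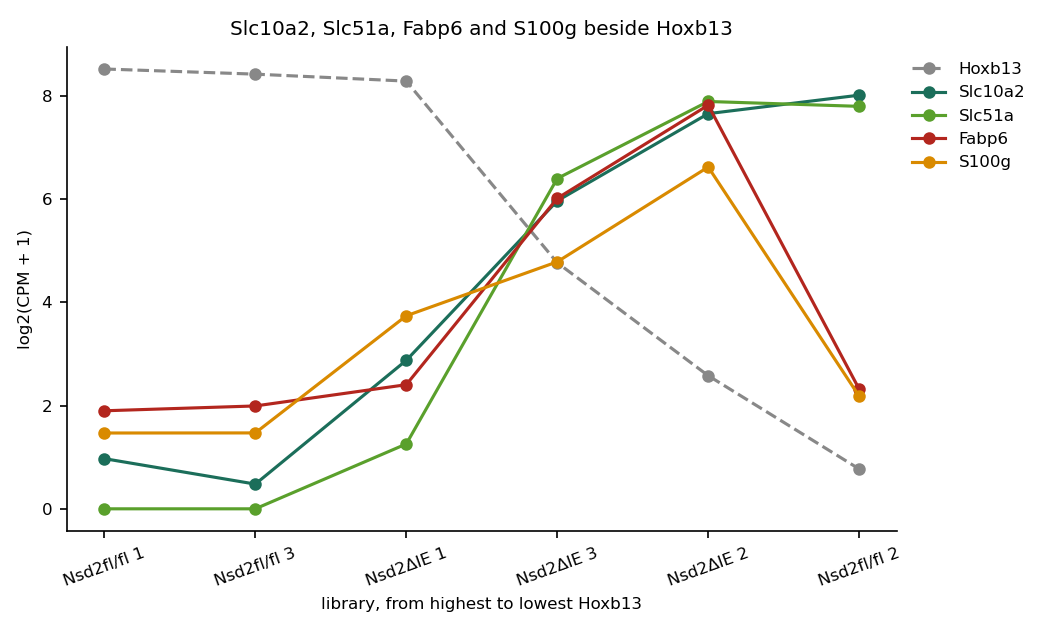
Lines join the log2(CPM + 1) values of 5 genes over the 6 libraries, which are placed from the highest to the lowest Hoxb13. Slc10a2 and Slc51a rise as Hoxb13 falls and stay high in Nsd2fl/fl 2, while Fabp6 and S100g follow them up to Nsd2ΔIE 2 and drop in Nsd2fl/fl 2, to 3.98 and 3.53 CPM.

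With log2 Hoxb13 CPM as a covariate, the log2 fold change of Fabp6 was 3.86 (SE 1.32), with an unadjusted p by edgeR of 0.0221 (adjusted p = 0.204). With the first principal component of the genes outside the bile acid lists, which carried 50.3% of their variance, it was 3.11 (SE 1.502), with an unadjusted p by edgeR of 0.0765 (adjusted p = 0.363). Without Nsd2ΔIE replicate 2 it was 3.39 (SE 0.977, adjusted p = 0.805). With the Hoxb13 covariate Slc10a2 and Slc51a moved to 2.22 (SE 0.346) and 3.87 (SE 0.663). Their unadjusted p by edgeR was 0.000343 and 0.000616, both lower than that of Fabp6, and the adjusted p was 0.136 for both. With the first component they moved to 0.57 (SE 0.460) and 1.03 (SE 0.484). For Fabp6 the direction held in all 17 alternatives, from 3.11 to 5.49, and the adjusted p was under 0.05 in the DESeq2 fit alone.

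**Figure D3:**
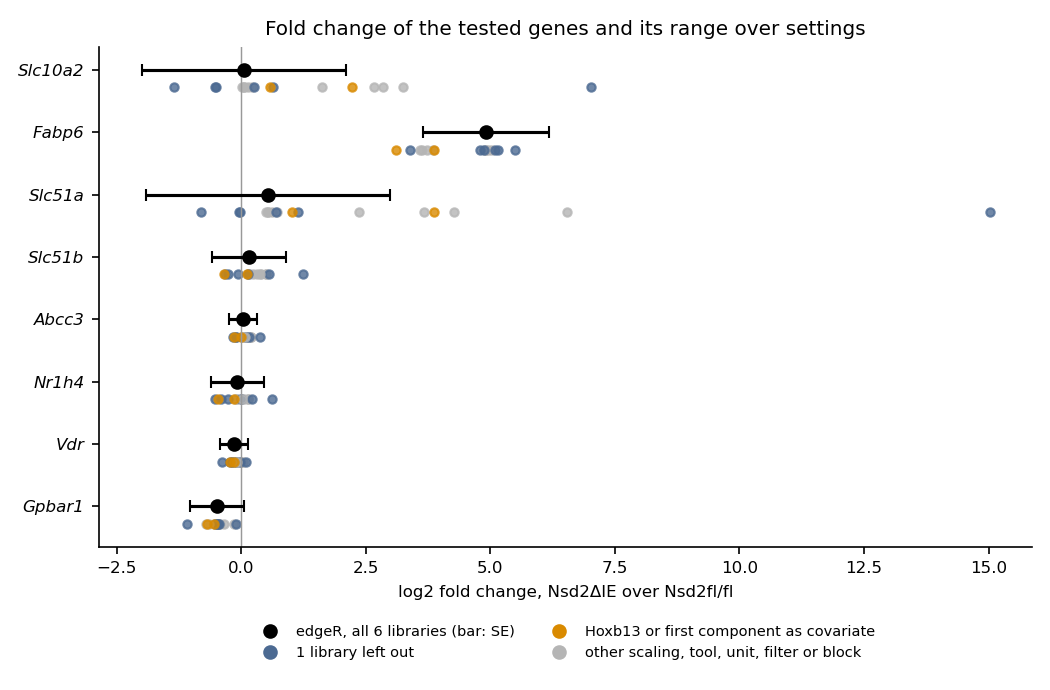
Black points give the log2 fold change of each tested gene, Nsd2ΔIE over Nsd2fl/fl, from the edgeR fit of all 6 libraries with its SE, and the small points under them the values from the alternatives. Fabp6 stays between 3.11 and 5.49, while Slc10a2 and Slc51a spread on both sides of 0; their points farthest to the right are the fits without Nsd2fl/fl 2, and for Slc51a that fit sets Nsd2ΔIE against controls at 0, so its value depends on the prior count.

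Nr1h4, which encodes FXR itself (chr10:89454234-89533645), was expressed in every library. It was at 55.0, 191.3 and 77.7 CPM in Nsd2fl/fl and at 58.4, 155.7 and 91.9 CPM in Nsd2ΔIE. Replicate 2 was again the highest in each group and the groups overlapped. The log2 fold change was -0.08 (SE 0.531, adjusted p = 0.965), and with the first principal component as a covariate it was -0.46 (SE 0.195), with an unadjusted p by edgeR of 0.0482 (adjusted p = 0.308).

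Nr0b2, the small heterodimer partner and a common readout of FXR activity in liver and ileum (chr4:133553376-133556686), was close to absent. It had 0 counts in all 3 Nsd2fl/fl libraries, which allows up to 3 counts in each, and 1, 5 and 8 counts in the Nsd2ΔIE libraries. Only Nsd2ΔIE replicates 2 and 3 were above that floor, and the highest value was 0.193 CPM. The gene was removed by the filter on low counts and not tested.

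Vdr, the vitamin D receptor (chr15:97854427-97908296), had the most counts of the set. It was at 518.1, 649.4 and 305.9 CPM in Nsd2fl/fl and at 471.6, 491.2 and 365.5 CPM in Nsd2ΔIE. The Nsd2ΔIE values lay inside the range of the controls, and they did not follow Hoxb13. The log2 fold change was -0.15 (SE 0.285, adjusted p = 0.865).

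Gpbar1, the G protein-coupled bile acid receptor (chr1:74278600-74279589), was barely detected. It had 22, 19 and 21 counts in Nsd2fl/fl and 6, 15 and 28 counts in Nsd2ΔIE, that is 0.571, 0.537 and 0.590 CPM against 0.151, 0.378 and 0.675 CPM. The controls were close to each other, the Nsd2ΔIE libraries lay on both sides of them, and the log2 fold change was -0.49 (SE 0.549, adjusted p = 0.771). It was -1.09 without Nsd2ΔIE replicate 3 and -0.10 without Nsd2ΔIE replicate 1.

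Per length, in deposited FPKM over the 6 libraries, the order of the mean level was Slc51b (123.1), Vdr (107.0), Fabp6 (102.1), Slc51a (57.96), Abcc3 (42.6), Nr1h4 (40.5), Slc10a2 (21.1), Gpbar1 (0.488) and Nr0b2 (0.0473). The ranges over the 3 libraries of a group did not overlap for 2 pairs of neighbours in Nsd2fl/fl, Vdr above Fabp6 and Gpbar1 above Nr0b2, and for 1 pair in Nsd2ΔIE, Slc10a2 above Gpbar1. The ranges of all other neighbours overlapped. The place of Fabp6 came from the Nsd2ΔIE libraries, with a mean of 198.1 ± 228.0 FPKM against 6.03 ± 1.03 FPKM in Nsd2fl/fl.

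**Figure D4:**
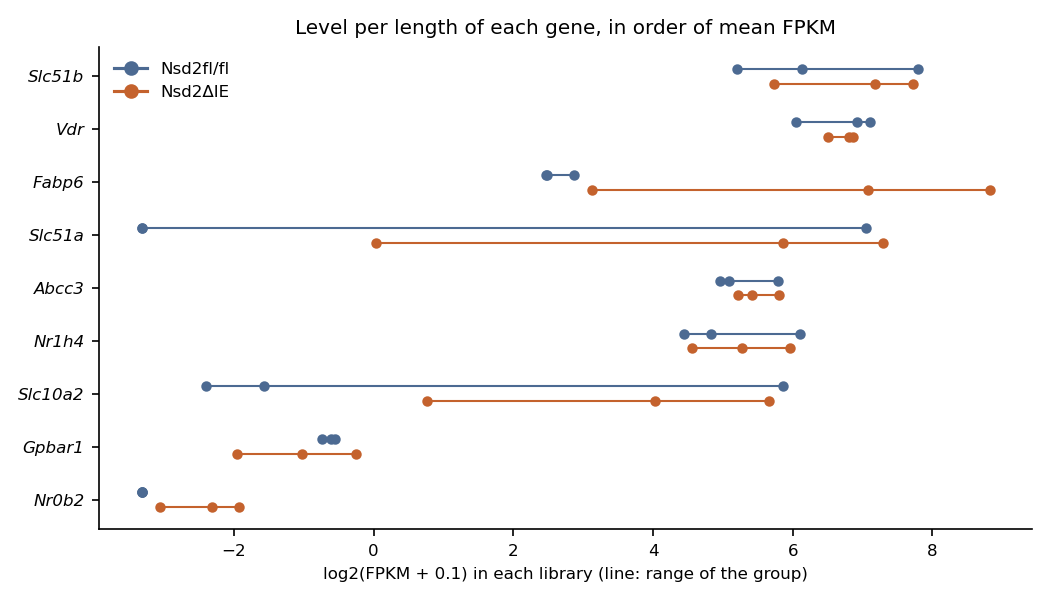
Points give log2(FPKM + 0.1) of each gene in each library and lines span the 3 libraries of a group, with genes in the order of their mean FPKM. The spans of Slc51a and Slc10a2 are the widest in Nsd2fl/fl, and Fabp6 has a short span there, from 5.41 FPKM, and a long one in Nsd2ΔIE, up to 451.2 FPKM.

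The other genes of bile acid handling and response were taken from 10 role lists of which 1 was the set itself. Of 87 such genes, 84 were in the files and 71 were tested. At an unadjusted p under 0.05, 3 of the 71 were higher in Nsd2ΔIE, against 8.15% of all genes, and 2 were lower, against 2.96%. By edgeR 0 of the 71 had an adjusted p under 0.05, against 0.0306% of all genes. By DESeq2 it was 2 of the 71, against 2.78% of all genes, so that count is close to the share of all genes. Their median log2 fold change was 0.02. By list, the genes past the unadjusted p were 1 of 11 for the FGF15 axis and FXR partners, 1 of 10 other carriers, 1 of 5 VDR response genes and 2 of 12 intestinal transcription factors, and 0 of 5 other receptors, 0 of 11 synthesis, 0 of 7 detoxification, 0 of 4 mucosal defence and 0 of 6 GPBAR1 response genes.

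S100g encodes the calcium binding protein calbindin-D9k and is induced by VDR in the gut and by oestrogen in other tissues. It had the largest of these changes. Like Fabp6 it was high in Nsd2ΔIE 2 and 3 and low in Nsd2fl/fl 2, but it differed in Nsd2ΔIE 1. For each Fabp6 read there were 2.88 S100g reads in Nsd2ΔIE 1, and 0.434 and 0.417 in Nsd2ΔIE 2 and 3. S100g was at 1.77, 3.53 and 1.77 CPM in Nsd2fl/fl and at 12.3, 97.2 and 26.5 CPM in Nsd2ΔIE. All Nsd2ΔIE libraries were above all controls, and Nsd2fl/fl 2 stayed low. The log2 fold change was 4.27 (SE 0.829, adjusted p = 0.302 by edgeR and 0.000604 by DESeq2), and it was 3.38 (SE 0.595) with the first principal component as a covariate. For this gene too, sex and genotype cannot be told apart.

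Rxrg, the RXR isotype of low abundance that can pair with FXR, was at 0.286, 0.367 and 0.281 CPM in Nsd2fl/fl and at 0.858, 1.08 and 1.47 CPM in Nsd2ΔIE. All 3 Nsd2ΔIE values exceeded all controls at this low level, and the log2 fold change was 1.86 ± 0.374 (SE), at an adjusted p of 0.302 by edgeR and 0.0174 by DESeq2. The smooth muscle sums given above moved the same way. So did the 8 enteric neuron and glia markers, which summed to between 46.9 and 77.1 CPM in Nsd2fl/fl and between 101.0 and 129.7 CPM in Nsd2ΔIE, with 8 of 8 higher and 8 past an unadjusted p of 0.05. Of the 6 tested adipocyte markers, 6 were higher and 3 past that p, with sums of 15.1 to 30.04 CPM and 38.3 to 88.3 CPM. Over all genes tested, 8.15% were higher in Nsd2ΔIE at that p by edgeR. The part of these cell types in Rxrg was not tested. Slco3a1, an organic anion carrier, was at 0.58 (SE 0.168) on the log2 scale, and Gata6, an epithelial transcription factor, at -0.35 (SE 0.134). Their adjusted p-values by edgeR were 0.317 and 0.419.

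**Figure D5:**
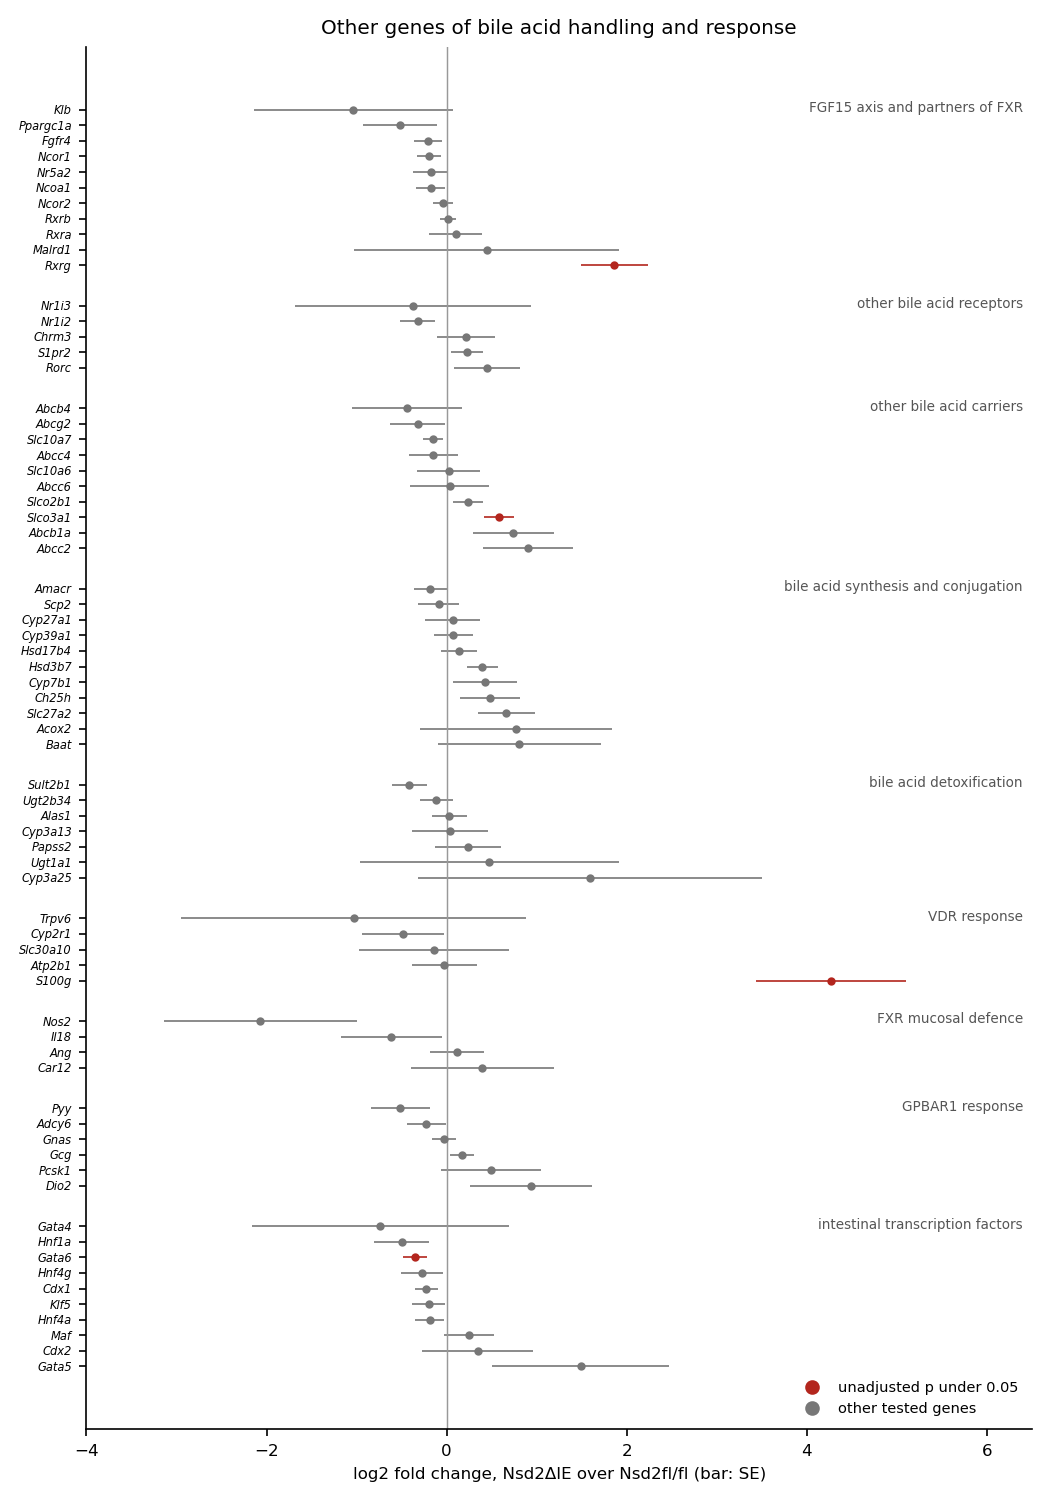
Each point is the log2 fold change of 1 of 69 tested genes, Nsd2ΔIE over Nsd2fl/fl, with its SE, sorted within the role lists named on the right. The 4 of them with an unadjusted p under 0.05 are coloured; S100g lies farthest from 0, and wide bars mark genes such as Malrd1, Ugt1a1 and Trpv6 that differ between libraries of the same genotype.

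Fgf15, the hormone that FXR raises in the ileum, was close to absent. It had 0, 0 and 1 counts in Nsd2fl/fl and 0, 9 and 2 counts in Nsd2ΔIE, and it was not tested. The highest value, 0.227 CPM, was in the library with the highest Fabp6. Rxra, the main partner of FXR, was at 101.8, 179.8 and 83.5 CPM and at 111.1, 155.8 and 124.4 CPM, with a log2 fold change of 0.10 (SE 0.296).

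Among the other receptors and carriers that handle bile acids, Nr1i2 (PXR) had a log2 fold change of -0.32 (SE 0.193), Abcc2 (MRP2) of 0.90 (SE 0.499) and Abcc4 (MRP4) of -0.15 (SE 0.270), with adjusted p-values from 0.561 to 0.857 by edgeR. Cyp27a1, which opens the alternative route of bile acid synthesis, was at 0.07 (SE 0.306) on the same scale, and Cyp7a1, the enzyme that opens the classical route, was not analysed here. Cyp24a1, a VDR response gene, had at most 4 counts and Cyp3a11, a bile acid hydroxylase, at most 9 counts in any library. Among the transcription factors, Hnf4a was at -0.19 (SE 0.160), Cdx2 at 0.34 (SE 0.614) and Gata4 at -0.74 (SE 1.43).

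Of the 71 genes, 19 were higher and 8 lower in all 3 low-Hoxb13 libraries than in all 3 high-Hoxb13 libraries, or 38.0% of them against 22.4% of all genes tested. Those higher included Malrd1, which raises FGF15 output, Ugt1a1, which conjugates bilirubin and other substrates, the carbonic anhydrase Car12, Cdx2 and Gata4. Malrd1 was at 46.4, 44.96 and 18.8 CPM in Nsd2fl/fl 2, Nsd2ΔIE 2 and Nsd2ΔIE 3, and at most 3.71 CPM elsewhere. Those lower included the calcium channel Trpv6, the FGF15 co-receptor Klb and the nuclear receptor Nr1i3 (CAR). Trpv6 had 176, 144 and 165 counts in the high-Hoxb13 libraries and 0, 0 and 2 in the others.

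Markers of small intestinal enterocytes and Paneth cells were mixed. Over all 16347 genes tested, 1561 were higher and 2098 lower in all 3 low-Hoxb13 libraries than in the others. Of the 17 enterocyte markers, 7 were higher in all 3 low-Hoxb13 libraries than in the others, 1 (Slc15a1) was lower and the rest overlapped. Those higher were Fabp2 (from 732.8 to 986.0 against at most 256.9 CPM), Mep1a (from 420.8 to 836.0 against at most 331.5 CPM), Sis (from 8.27 to 46.96 against at most 0.909 CPM), Alpi (from 27.3 to 45.5 against at most 6.79 CPM), Enpep (from 20.2 to 48.1 against at most 14.4 CPM), Fabp1 (from 0.763 to 1.23 against at most 0.328 CPM) and Apoa1 (from 0.169 to 0.763 against at most 0.0757 CPM). Near 0 in every library were Apoa4, at most 0.227 CPM, Apoc3, at most 0.182 CPM, Lct, at most 0.0964 CPM, and Treh, at most 0.393 CPM. Of the 5 Paneth cell markers in the files, Mmp7 was higher in the low-Hoxb13 libraries (from 6.05 to 9.39 against at most 0.631 CPM), Lyz1 and Itln1 were lower, and the defensins Defa24 and Defa30 were at most 0.168 CPM. The enterocyte markers summed to between 590.8 and 2451 CPM in Nsd2fl/fl and between 1023 and 2039 CPM in Nsd2ΔIE, the Paneth cell markers to between 28.1 and 113.4 CPM and between 20.4 and 41.2 CPM, and the hepatocyte markers to between 9.58 and 72.8 CPM and between 20.7 and 52.9 CPM. The part of such cells in the levels of Slc10a2, Slc51a and Fabp6 was not tested.

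For each tested gene the most similar profiles over the 6 libraries were sought among genes with an average log2 CPM of at least 1, by the root-mean-square difference of centred log2 CPM. The profile of Slc10a2 was closest to Abca12 (0.299), Prap1 (0.641) and Hoxb8 (0.749), against an SD of its own profile of 3.93. Fabp6 was closest to S100g (0.936), Ctxn3 (1.35) and Pln (1.40), with an SD of 2.71, so only S100g came near it. Slc51a was closest to Slc10a2 (1.78), Abca12 (1.92) and Nts (1.93), with an SD of 5.78.

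The 2 nearest to Fabp6 after S100g were not equally high in the same libraries. Ctxn3 was at 3.22, 5.34 and 4.04 CPM in Nsd2fl/fl and at 6.74, 24.8 and 30.8 CPM in Nsd2ΔIE, and Pln, a muscle gene that encodes phospholamban, at 6.41, 2.66 and 4.38 CPM and at 12.03, 35.1 and 41.1 CPM. Both peaked in Nsd2ΔIE 3, whereas Fabp6 and S100g peaked in Nsd2ΔIE 2. Slc51b was closest to Lpcat4 (0.176), Apol6 (0.241) and Irf7 (0.249), Abcc3 to Snrk, Rab4a and Slc25a44 (0.0639 to 0.0713), Nr1h4 to Spryd7, Adamts3 and Tmem238l (0.153 to 0.177), Vdr to Cables1, Relb and Cyp2d22 (0.0796 to 0.0975) and Gpbar1 to Ccl8, Map3k15 and Gbp4 (0.295 to 0.308). Genes that vary little lie close to many others on this measure, so the distances of Abcc3 and Vdr are small in part for that reason.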

How the data were processed

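Colon RNA in 3 Nsd2fl/fl and 3 Nsd2ΔIE libraries was analysed, with groups and replicate numbers from the labels. The authors deposited read counts per gene symbol and FPKM values derived from them. The processing notes of the submitters name fastp, HISAT2, HTSeq, R 3.2.0 and build mm10, while annotation and strand were not given in the sources used here. The 9 genes, the gene lists and the alternatives were chosen with earlier results of these data known, and the named genes are all 9, fixed companions, genes with an unadjusted p under 0.05 and the 3 nearest profiles of each. Low-count genes were dropped by filterByExpr of edgeR 4.0.16 in R 4.3.3, and 16347 genes were tested with the two-sided quasi-likelihood test, TMM factors and Benjamini-Hochberg adjustment. CPM are counts scaled by the same factors, and SE was taken as the absolute log2 fold change over the root of F. The fit was tested on simulated data. The labels do not say that replicates were separate animals, so p-values measure the spread between these libraries. The common dispersion was 0.0967. The smallest chi-square per degree of freedom between libraries was 35.5, so all 6 were kept. Floors of 3 counts (at most 0.0848 CPM) cover counting error only. Alternatives were RLE, upper-quartile or no factors, DESeq2 1.42.0, limma 3.58.1 (voom, and log2 FPKM with pseudocounts of 1 and 0.1), no filter, each library left out, the replicate block, and Hoxb13 or the first principal component as a covariate. Positions and promoter windows are from RefSeq tables of GRCm38.p6, in which 8 of the 9 genes had a window, and exon overlaps from GENCODE M21. Values of 2 transcription factor genes are not reported here; list counts include both. Sequence motifs were matched by letters alone.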

Additional observations from a re-analysis of the deposited data

Results flagged for a closer look

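Of the 14 bile acid genes that the filter on low counts kept out of the test, 5 had more than 3 counts in at least 1 Nsd2ΔIE library and at most 3 in every Nsd2fl/fl library, or 35.7% against 11.3% of all 8170 genes kept out. The reverse held for 2 of the 14, or 14.3% against 7.97%: Abcb11, the bile salt export pump, had at most 13 counts in Nsd2fl/fl and 3 in Nsd2ΔIE, and Slc27a5, a bile acid ligase, 5 and 2. Among the 5, the highest Nsd2ΔIE count was 9 for Fgf15, 8 for Nr0b2, 5 for Slco1a4, an organic anion carrier, 4 for Cyp24a1, the vitamin D hydroxylase, and 4 for Calb1, a calcium binding protein. The highest counts of Fgf15, Slco1a4 and Calb1 were in Nsd2ΔIE 2 and those of Nr0b2 and Cyp24a1 in Nsd2ΔIE 3, the 2 libraries in which Fabp6 was high. These differences rest on a few reads and were not tested: Calb1 had 3 counts in Nsd2fl/fl 1 and 4 in Nsd2ΔIE 2. Groups of 3 are too small for the test of a sample that lies far from the others.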

How the results depend on the processing

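The number of the 9 genes with an adjusted p under 0.05 was 0 in all fits but DESeq2, which gave 1. The number with an unadjusted p under 0.05 was 1, but 0 with limma-voom, 2 without the filter (Fabp6 and Nr0b2), 3 with Hoxb13 as a covariate (Fabp6, Slc10a2 and Slc51a) and 1 to 3 without single libraries, the 3 arising without Nsd2fl/fl 2. With the first principal component as a covariate the 1 gene was Nr1h4. The number with groups that did not overlap was 1, and 1 to 4 without single libraries (4 without Nsd2fl/fl 2, 2 without Nsd2fl/fl 3 or Nsd2ΔIE 3). Shares of all genes are not given for these alternatives, and ranges separate more readily with a library fewer.

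Among the 71 other bile acid genes tested, DESeq2 called 2 in place of 0, against 2.78% of all genes. The 5 past the unadjusted p became 8 with limma-voom and with log2(FPKM + 1), 14 with the first component, 18 with Hoxb13, and 3 to 18 without single libraries (9 without Nsd2fl/fl 1, 18 without Nsd2fl/fl 2, 8 without Nsd2ΔIE 1, 3 without Nsd2ΔIE 2 or 3). The share of all genes past that p is not given for these alternatives, so these counts cannot be called particular to bile acid genes. Same-numbered libraries had correlations of deviations of 0.501, 0.643 and -0.166, so the numbers were not taken as pairs; with the replicate block the count was 12 and the log2 fold change of Fabp6 3.85 (adjusted p = 0.309).

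Directions turned only for genes whose difference in the edgeR fit of all 6 libraries was smaller than its SE. Some turned values exceeded their own SE. They were Nr1h4 without Nsd2fl/fl 2, at 0.62 (SE 0.401), and with the first component Slc51b, at -0.35 (SE 0.281), and Abcc3, at -0.15 (SE 0.138). Without single libraries the log2 fold change ran from -1.35 to 7.02 for Slc10a2, -0.80 to 15.02 for Slc51a, -0.33 to 1.24 for Slc51b, -0.16 to 0.37 for Abcc3, -0.52 to 0.62 for Nr1h4 and -0.39 to 0.10 for Vdr; it stayed on one side of 0 for Fabp6 (3.39 to 5.49) and Gpbar1 (-1.09 to -0.10). With the first component it was -0.35 for Slc51b and -0.15 for Abcc3. Nr1h4 was at 0.0651 with library totals alone, 0.00661 with limma-voom, 0.13 with log2(FPKM + 1), 0.14 with log2(FPKM + 0.1) and 0.00985 with the replicate block, and Vdr at 0.0326 and 0.0335 with the FPKM pseudocounts. The cause was not tested. Depth was alike in all libraries. Nr0b2, Fgf15 and Gpbar1 had few counts in every library, and Gpbar1 also ran from 6 to 28 counts in Nsd2ΔIE. How far depth or the spread between libraries limits each gene was not tested.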

Other observations

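Colonocyte genes outside the bile acid lists also differed between libraries of the same genotype. Of 8 listed, 3 (Car1, Cyp2c55 and Guca2a) were higher in all low-Hoxb13 libraries than in the others. Another 3 (Aqp4, Aqp8 and Slc26a3) were lower, and the rest overlapped. Over all genes tested, 22.4% separated these libraries in either direction. Car1, a carbonic anhydrase of colonocytes, was at 7837, 8057 and 3799 CPM in Nsd2fl/fl 2, Nsd2ΔIE 2 and Nsd2ΔIE 3 and at most 723.1 CPM in the other libraries, and Cyp2c55 at 1456, 2487 and 754.4 CPM against at most 176.2 CPM. The water channel Aqp4 ran the opposite way, at 153.5, 167.9 and 300.4 CPM against at least 461.6 CPM. The Hox genes of more proximal segments did as Car1 did: Hoxb6 was at 69.5, 43.3 and 26.6 CPM in the same 3 libraries and at most 2.09 CPM in the others. Nos2, which encodes inducible nitric oxide synthase, was highest in Nsd2fl/fl 2, at 23.7 CPM, and at most 5.03 CPM elsewhere.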
